A study of Mus musculus with 6 samples.

Results

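The 26S proteasome is the large protease that degrades proteins tagged with ubiquitin. Its genes were compared between inguinal lymph nodes of 3 mouse samples labelled Naringin and 3 labelled Control. Naringin, the bitter flavanone glycoside of grapefruit, was mixed into the food at 200 mg/kg per day, per the labels. The sources used here give neither the strain, sex and age of the mice, nor how long they were fed, nor what the Control mice ate. The members were the rows of the deposited table whose gene symbol begins with Psma, Psmb, Psmc, Psmd, Psme, Psmf or Psmg followed by a digit, with a mean of at least 1 CPM (reads of the gene per 1000000 reads of the library) over the 6 libraries. The pattern matched 57 of 50559 rows. After 6 pseudogenes and the 3 immunoproteasome subunits were set aside, 2 genes lay under the minimum and 46 remained. The 2 genes under it were Psma8, a testis subunit, at a mean of 0.408 CPM, and Psmb11, the thymic cortex subunit, at 0.0255 CPM. The lowest gene inside it was Psmc3ip at 5.90 CPM. The 46 genes had 69 to 6901 reads in a library. Nothing in the labels states that the 3 samples of a group were separate animals, so p-values measure the spread between libraries, part of which may be technical.

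The enzyme consists of a barrel, the 20S core particle, capped at one or both ends by a 19S regulatory particle. The outer rings of the barrel are built from alpha subunits, which gate the entrance, and the inner rings from beta subunits, of which Psmb5, Psmb6 and Psmb7 carry the active sites. The 19S base unfolds substrates with a ring of ATPases, and its lid removes the ubiquitin chain. In lymphocytes and other immune cells, Psmb8, Psmb9 and Psmb10 replace the catalytic subunits to form the immunoproteasome, and the PA28 activator, made of Psme1 and Psme2, can cap the core. Of the 46 symbols, 3 belong to none of these parts: Psmc3ip and Psme3ip1 encode interacting proteins, and Psme2b is a Psme2-like retrogene. The remaining 43 comprised 14 core subunits, 17 regulatory particle subunits, 4 activators, 1 inhibitor, 4 chaperones of core assembly and 3 of base assembly.

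The group means of proteasome subunits lay close together in the nodes. Of the 46 genes, 24 had a higher and 22 a lower mean log2 value with naringin, where 56.7% of all 14873 genes tested were higher, the share beside which the counts of higher genes by class and list also stand. The median log2 fold was 0.0080, beside 0.025 over all genes. By particle, the median was -0.0037 over the 14 core subunits and 0.031 over the 17 regulatory particle subunits. Under upper-quartile scaling the median of the 46 was -0.035 and that of all genes -0.015. Summed over the core, the level was 1713 ± 58.9 CPM with naringin and 1728 ± 311 CPM in Control (SD, n = 3 each). Summed over the regulatory particle it was 1793 ± 23.7 CPM with naringin and 1797 ± 220.4 CPM in Control. In bulk tissue such as this, fewer cells of a type and less RNA per cell cannot be told apart. No gene of the 46 passed limma's test with Benjamini-Hochberg adjustment over all genes at 0.05, in either direction, where the share of all genes called was 0% higher and 0% lower. Also 0 of the 46 had an unadjusted limma p under 0.05, where 0.975% of all genes were higher and 0.457% lower. The lowest adjusted p among them was 0.9996, shared by all 46. With edgeR and DESeq2 on the recovered reads, 0 of the 46 were called, where edgeR called 0% of all genes in each direction and DESeq2 0.00672% higher and 0.0134% lower. In 0 of the 46 did the 3 naringin values lie wholly above or below the 3 control values, where 3.36% of all genes lay above and 2.29% below. All 46 confidence intervals (95%, limma) of the log2 fold included 0, and their bounds reached from -0.69 for Psmg4 to 0.71 for Psmg3.

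**Figure D1:**
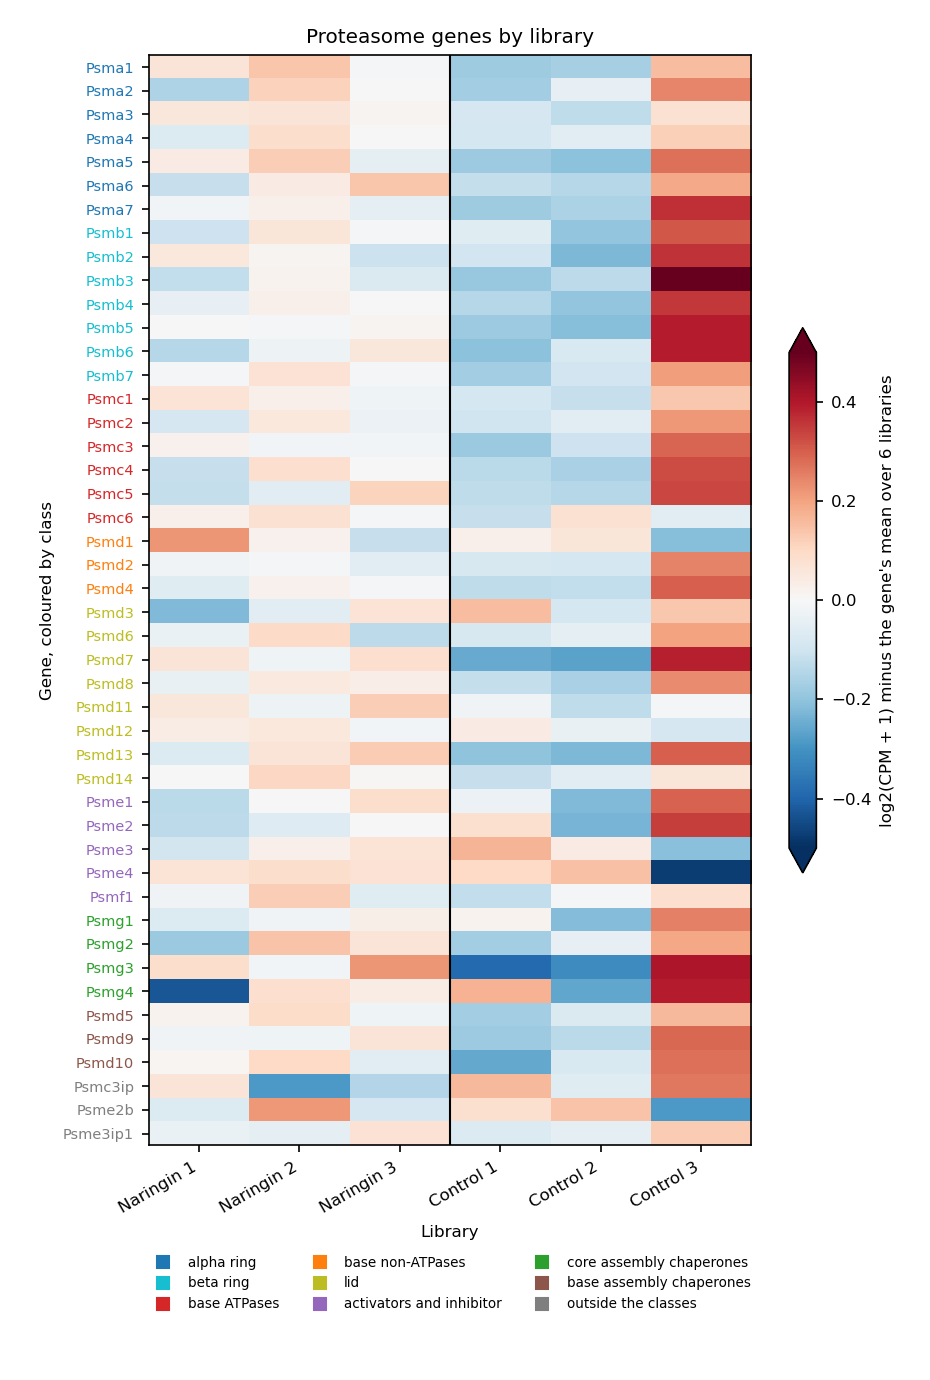
Each row is one of the 46 genes and each column a library, naringin left of the line and control right of it. Colour gives log2(CPM + 1) minus the gene's own mean over the 6 libraries, and gene names are coloured by class. Control 3 is the highest library in 36 rows, while the naringin columns stay near each gene's mean.

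The libraries differed more within Control than between the groups. The 46 genes together took 0.452%, 0.476% and 0.470% of the reads in Naringin 1, 2 and 3, against 0.440%, 0.427% and 0.548% in Control 1, 2 and 3. All 3 naringin libraries thus lay above Control 1 and Control 2 and below Control 3. The standard deviation was larger in Control than with naringin in 44 of the 46 genes, where 65.9% of all genes tested showed this. Most of that spread lay between Control 3 and the other control libraries. The median log2 deviation of the 46 from each gene's mean was -0.12 in Control 1, -0.12 in Control 2 and 0.25 in Control 3.

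Transcription of proteasome genes in mammals is known to be driven by Nfe2l1, which binds antioxidant response elements when proteasome activity falls. The letters TGACNNNGC, which resemble the core of that element, were searched on both strands in RefSeq windows of build GRCm38.p6, from 250 bases before to 50 bases after each start. A window was found for 39 of the 46 genes, and 6 of these (15.4%) held the letters, beside 14.0% of all genes with a window and 16.8% of the genes tested. The letters CCAAT or their reverse complement were in 14 of the 39 (35.9%), beside 41.1% of all genes with a window and 42.4% of the genes tested. For both motifs the share lay below that of the genes tested, and the difference was not tested. For the stretches below, a chromosome was left out. In 3 genes the first motif and 16 bases on each side lay wholly upstream of the start. These stretches are shown 5′ to 3′ on the strand of the gene, with the motif in capitals, because they are the candidate letters in the catalytic subunit Psmb5, the ATPase Psmc6 and the chaperone Psmd9.
Psmb5: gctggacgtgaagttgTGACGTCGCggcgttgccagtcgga
Psmc6: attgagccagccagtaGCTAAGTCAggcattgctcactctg
Psmd9: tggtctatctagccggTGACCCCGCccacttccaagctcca
The stretch of Psmb5 is chr14:54618018-54618058 on the minus strand, and its motif starts 47 bases before the gene start. That of Psmc6 is chr14:45329581-45329621 on the plus strand, with the motif on the opposite strand. Its capitals as printed begin 227 bases before the gene start. That of Psmd9 is chr5:123228143-123228183 on the plus strand, 31 bases before the start. Such a match describes the letters only.

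To compare levels between genes, CPM was divided by exon length in kilobases (GENCODE M21), which was found for 45 of the 46. The exon length joins all coding isoforms of a gene, so a gene with a long rare isoform is placed too low. The core ran from 42.6 CPM per kb for Psma2 to 162 CPM per kb for Psmb3 with naringin, and from 43.5 for Psma2 to 181 CPM per kb for Psmb3 in Control. Subunits present in equal numbers in the particle thus differed 3.80-fold in level per length with naringin and 4.15-fold in Control. The regulatory particle lay lower, with a median of 55.1 CPM per kb with naringin and 56.0 CPM per kb in Control, against core medians of 95.7 CPM per kb with naringin and 94.0 CPM per kb in Control. Assembly chaperones, which act on the particle before it is complete, were lower again by median. The core chaperones had medians of 22.8 CPM per kb with naringin and 21.5 CPM per kb in Control. Among them, Psmg4 lay within the range of the regulatory particle, at 42.1 CPM per kb with naringin and 48.9 CPM per kb in Control. The base chaperones Psmd5, Psmd9 and Psmd10 ran from 9.70 to 19.3 CPM per kb with naringin. In Control they ran from 9.68 to 19.01 CPM per kb.

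**Figure D2:**
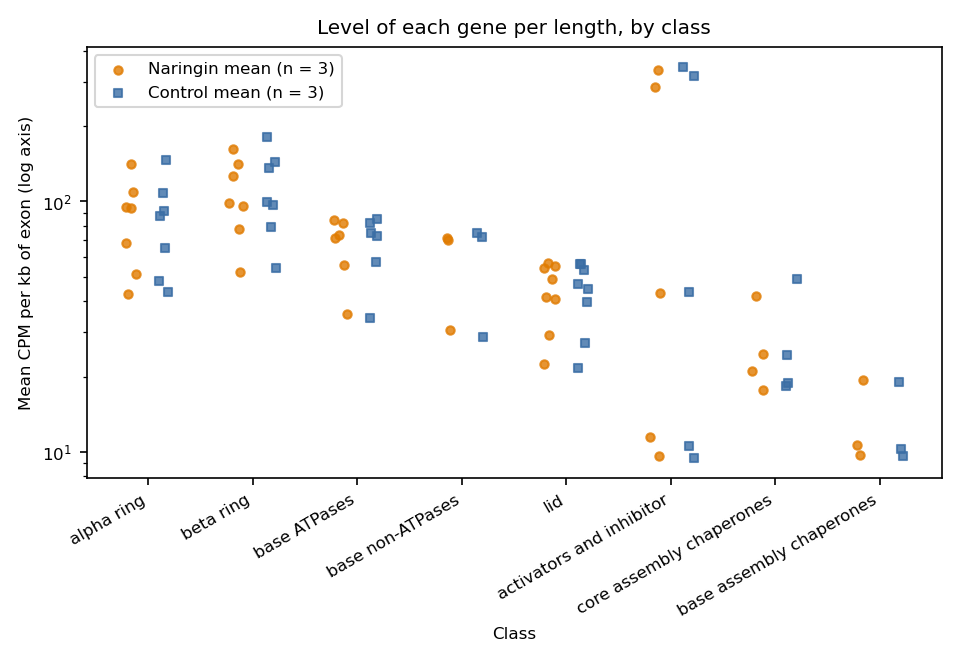
Each point is a gene's mean CPM per kb of exon on a log axis, naringin circles left of control squares within each class (n = 3 libraries a group). The PA28 genes Psme1 and Psme2 stand highest, at 335 and 285 CPM per kb with naringin, and the order of the classes by median is the same in both groups.

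The catalytic subunits of the core overlapped between the groups. Psmb5, which cleaves after hydrophobic residues, had 69.8, 69.5 and 70.6 CPM in Naringin 1, 2 and 3, against 61.5, 60.2 and 92.1 CPM in Control 1, 2 and 3. The naringin values were almost equal and lay above Control 1 and 2 and below Control 3. The log2 fold of Psmb5 was 0.0019 ± 0.17 (SE), with an interval of -0.40 to 0.40 (limma adjusted p = 0.9996). Psmb6, which cleaves after acidic residues, had 93.8, 102 and 108 CPM with naringin, against 89.8, 98.2 and 136 CPM in Control, a log2 fold of -0.07 ± 0.17 (SE). Psmb7, which cleaves after basic residues, had 112, 119 and 112 CPM with naringin, against 99.8, 106 and 131 CPM in Control, a log2 fold of 0.04 ± 0.14 (SE). In each of the 3, Control 3 was the highest library and Control 1 or Control 2 the lowest. The direction of the small folds depended on scaling for Psmb5 and Psmb7: upper-quartile scaling gave -0.041 and -0.0038.

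Among the other beta subunits, which are structural, Psmb3 had the largest gap between Control 3 and the rest. It had 119, 131 and 123 CPM with naringin, against 114, 118 and 183 CPM in Control, a log2 fold of -0.12 ± 0.19 (SE). Of the 7 beta subunits, 2 had a higher and 5 a lower mean log2 value with naringin, with log2 folds from -0.12 for Psmb3 to 0.04 for Psmb7. Of the 7 alpha subunits, 5 were higher and 2 lower in mean log2 value, from -0.02 for Psma2 to 0.13 for Psma1. Psma1 had 118, 124 and 112 CPM with naringin, against 99.6, 100.4 and 126 CPM in Control. Psma3 had 147, 148 and 143 CPM with naringin, against 134, 129.5 and 149.6 CPM in Control. Their log2 folds were 0.13 ± 0.14 and 0.09 ± 0.12 (SE). Both had all naringin values above Control 1 and 2, and Control 3 above all of them.

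In the regulatory particle, the ATPases that unfold substrates had log2 folds from -0.045 for Psmc5 to 0.06 for Psmc6, with 2 of 6 higher in mean log2 value. Psmc6 had 79.3, 82.1 and 77.4 CPM with naringin, against 71.7, 82.2 and 74.98 CPM in Control, and was the only ATPase gene in which Control 3 was not the highest library. Psmc1 had 138, 134 and 130.1 CPM with naringin, against 124, 122 and 145 CPM in Control. The log2 folds of Psmc6 and Psmc1 were 0.06 ± 0.12 and 0.05 ± 0.12 (SE). Among the base scaffolds, Psmd2 had 213, 215 and 208 CPM with naringin, against 204, 203 and 256 CPM in Control, a log2 fold of -0.05 ± 0.13 (SE). Psmd1, the other large scaffold, had 107, 93.7 and 85.0 CPM with naringin, against 93.8, 96.3 and 79.3 CPM in Control, a log2 fold of 0.08 ± 0.14 (SE). Control 3 was thus the lowest library for Psmd1 and the highest for Psmd2. Psmd4, a ubiquitin receptor, averaged 129 ± 3.62 CPM with naringin and 133 ± 23.8 CPM in Control (SD, n = 3 each).

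The lid had 6 of 8 genes higher in mean log2 value. Psmd14, the deubiquitinase of the lid, averaged 64.2 ± 2.66 CPM with naringin and 61.1 ± 3.93 CPM in Control. Psmd3 had the smallest p of the lid and a lower mean, with 78.3, 88.0 and 95.7 CPM with naringin, against 102, 85.8 and 100.4 CPM in Control. Psmd11, known from human cells to promote assembly of the 26S particle, had 87.2, 82.4 and 91.5 CPM with naringin, against 82.8, 76.6 and 83.5 CPM in Control. Their log2 folds were -0.14 ± 0.13 and 0.10 ± 0.11 (SE), and in both genes the groups overlapped.

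The caps that can replace the 19S particle spanned the widest range of levels. The PA28 subunit Psme1 had 342, 376 and 400.1 CPM with naringin, against 369, 323 and 461 CPM in Control, a log2 fold of -0.03 ± 0.16 (SE). Its partner Psme2 had 266, 279 and 291 CPM with naringin, against 308, 248 and 371 CPM in Control, a log2 fold of -0.13 ± 0.16 (SE). Reads of Psme2 and of the retrogene Psme2b may have been split between the copies, since no source used here states how shared reads were handled. Psme3, the nuclear PA28 gamma, had 108, 117 and 121 CPM with naringin, against 129.6, 118 and 99.3 CPM in Control, and a log2 fold of -0.00024 ± 0.14 (SE). Psme4 (PA200), a large nuclear activator, had 74.2, 75.3 and 74.5 CPM with naringin, against 76.0, 78.4 and 50.7 CPM in Control. Its log2 fold of 0.15 ± 0.18 (SE) rested on Control 3, without which it was -0.047. Psmf1 (PI31), first described as an inhibitor of the core, had 37.5, 41.4 and 36.4 CPM with naringin, against 34.8, 37.7 and 40.3 CPM in Control, and a log2 fold of 0.03 ± 0.12 (SE), or -0.012 under upper-quartile scaling. For Psme3 and Psme4, Control 3 was the lowest of the 6 libraries, opposite to Psme1 and Psme2.

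The core chaperones Psmg3 and Psmg4 had the widest intervals. Psmg3, which pairs with Psmg4 to build the alpha ring, had 18.4, 17.03 and 20.2 CPM with naringin, against 12.9, 13.7 and 23.1 CPM in Control. Its log2 fold of 0.20 ± 0.22 (SE) was the highest of the 46. Psmg4 had 18.2, 26.4 and 25.5 CPM with naringin, against 28.1, 20.5 and 32.9 CPM in Control, a log2 fold of -0.20 ± 0.21 (SE). The partners had opposite signs, and in both Control 3 was the highest library. The sizes turned on single libraries: the fold of Psmg4 was -0.039 without Naringin 1, -0.057 without Control 3 and -0.38 without Control 2, and that of Psmg3 was 0.052 without Control 1, 0.089 without Control 2 and 0.45 without Control 3. The base chaperone Psmd5 had 46.6, 49.1 and 45.3 CPM with naringin, against 40.7, 43.7 and 51.6 CPM in Control, a log2 fold of 0.06 ± 0.13 (SE). Psmd10 (gankyrin) had 28.1, 30.05 and 27.0 CPM with naringin, against 23.3, 26.5 and 34.1 CPM in Control, and its log2 fold of 0.038 ± 0.16 (SE) was -0.0038 under upper-quartile scaling. The lowest log2 fold of the 46, -0.24 ± 0.19 (SE), was that of Psmc3ip, a meiotic recombination cofactor that is no proteasome subunit.

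Immunoproteasome subunits were set beside the constitutive ones they replace. All 3 had a lower mean log2 value with naringin, and 0 passed. Psmb8, Psmb9 and Psmb10 had log2 folds of -0.04, -0.04 and -0.06, and without Control 3 all 3 signs turned, to 0.15, 0.06 and 0.14. Psmb8 averaged 271 CPM per kb with naringin and 283 CPM per kb in Control, against 77.8 CPM per kb with naringin and 79.3 CPM per kb in Control for Psmb5. The ratio of Psmb8 to Psmb5 in CPM was 5.72, 6.62 and 6.56 with naringin, against 6.58, 6.45 and 6.39 in Control. That of Psmb9 to Psmb6 was 1.93, 2.00 and 1.83 with naringin, against 2.10, 1.88 and 1.68 in Control. That of Psmb10 to Psmb7 was 1.47, 1.601 and 1.75 with naringin, against 1.71, 1.53 and 1.95 in Control. All 3 ratios overlapped between the groups, and their differences were within the spread between libraries.

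The wider pathway was read from lists of other proteasome and ubiquitin genes. Of 9 subunits and cofactors with other symbols, 7 had a higher and 2 a lower mean log2 value, with a median log2 fold of 0.08, and 0 passed in either direction. In 1 of the 9 the naringin values lay wholly above the control values, where 3.36% of all genes did. This gene was Akirin2, which carries the proteasome into the nucleus, at 42.1 ± 1.89 CPM with naringin and 37.4 ± 1.13 CPM in Control (SD, n = 3 each), with a log2 fold of 0.17 ± 0.11 (SE; limma adjusted p = 0.9996). Zfand5, an activator of the particle, averaged 66.7 ± 3.92 CPM with naringin and 60.3 ± 5.11 CPM in Control, and its log2 fold of 0.14 was 0.08 without Control 3. Of 4 regulators of proteasome genes, all were higher in mean log2 value and 0 passed. Nfe2l1 averaged 190.4 ± 14.2 CPM with naringin and 179 ± 3.83 CPM in Control, and Ddi2, the protease that activates it, 14.2 ± 1.63 CPM with naringin and 10.6 ± 4.76 CPM in Control. Ddi2 had 13.8, 12.9 and 5.15 CPM in Control 1, 2 and 3, and its log2 fold of 0.48 was 0.08 without Control 3. Of 14 genes of ubiquitin and substrate delivery, 5 were higher and 9 lower, with a median of -0.026, and 0 passed. Rad23b, a shuttle for ubiquitinated proteins, averaged 133 ± 6.91 CPM with naringin and 119 ± 14.1 CPM in Control, and its log2 fold of 0.16 was 0.06 without Control 3.

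Control 3 stood apart for most proteasome genes. It was the highest of the 6 libraries in 36 of the 46 genes, including all 14 core subunits and 11 of 17 regulatory particle subunits, where 24.0% of all genes tested had it highest. It was the lowest in 5, namely Psme3, Psme4, Psmd1, Psmd12 and Psme2b, where 36.6% of all genes had it lowest. Relative to the mean of the other 5 libraries, Control 3 lay from -0.57 for Psme4 to 0.60 for Psmb3 on the log2 scale. Of the 29 members with up to 2000 bases of exon, 27 had it highest, where 50.6% of all genes of that length did. Those 29 had a median deviation of 0.35, and the 16 longer ones 0.13. Over all genes tested the medians were 0.23 up to 2000 bases and -0.14 above. Spearman's rho between this deviation and exon length was -0.56 over 45 members and -0.52 over 13956 genes, which share the same libraries and are not replicates. Psme2b, with 837 bases, was the short exception, at -0.34.

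**Figure D3:**
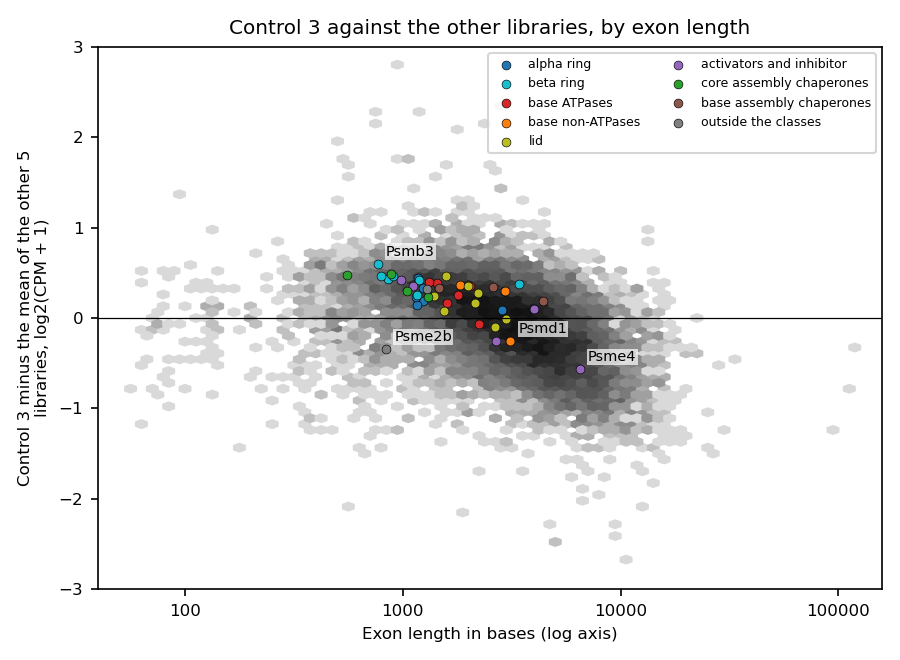
The difference between Control 3 and the mean of the other 5 libraries, in log2(CPM + 1), is plotted against exon length on a log axis. Grey hexagons are all genes tested, darker where there are more genes on a log scale, and coloured points are the 45 members with a length. Most short members lie above 0 and the long Psme4 lies at -0.57.

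Other properties of the libraries moved with Control 3. Mitochondrially encoded messenger and ribosomal RNAs took 1.40% of its reads, against 1.88% to 2.00% in the other 5. Cytosolic ribosomal protein genes took 12.6%, against 8.70% to 10.1%. Summed plasma cell markers were 272 to 335 CPM with naringin, against 224 and 289 CPM in Control 1 and 2 and 426 CPM in Control 3. Summed myeloid markers were 2260 to 3962 CPM with naringin, against 2428 and 2609 CPM in Control 1 and 2 and 4073 CPM in Control 3. Both sums were thus highest in Control 3, as most proteasome genes were. Most of the myeloid sum was Lyz2, which had 3336 CPM in Naringin 1, beside 3503 CPM in Control 3. Control 3 was the highest library in 3 of the 5 myeloid genes. Csf1r and Adgre1 were instead highest in Naringin 1, with 435 and 75.3 CPM there, against 394 and 50.3 CPM in Control 3. B cell markers summed to 2612.5 to 3360 CPM with naringin and 2591 to 2841 CPM in Control, and T cell markers to 1078 to 1385 CPM with naringin and 1357 to 1434 CPM in Control. Markers of dividing cells summed to 183 to 252 CPM with naringin and 203 to 212 CPM in Control, those of stroma and endothelium to 1152 to 1322 CPM with naringin and 732 to 991 CPM in Control, and those of adipocytes to 34.3 to 63.7 CPM with naringin and 48.2 to 117 CPM in Control. Of the 6 stroma and endothelium genes, Cxcl13 and Glycam1 had naringin values wholly above the control values, where 3.36% of all genes did. The other 4 overlapped. All 6 T cell genes had a lower and all 5 B cell genes a higher mean log2 value with naringin, where 56.7% of all genes were higher. Of the T cell genes, Cd4 and Cd5 lay wholly below the control values, where 2.29% of all genes did, and the other 4 overlapped. None of these marker genes passed limma's test. Keratinocyte and muscle markers stayed under 1 CPM in sum, with Krt14 and Krt5 at 0 in all 3 control libraries. The T cell marker Cd3e and the B cell marker Ms4a1 averaged 200.1 and 492 CPM with naringin and 216 and 396 CPM in Control. Both lymphocyte types of the labelled tissue were thus present. The part of marker genes and of RNA quality in the proteasome values was not tested.

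Without Control 3, most proteasome genes had higher means with naringin, though none of the 46 passed the test. Control 3 was the highest library in 36 of the 46, so leaving it out raises the fold of those genes by arithmetic. The counts below follow in part from that. The mean log2 value was higher in 39 of the 46 genes, where 50.3% of all genes tested were higher, and the median log2 fold was 0.11, beside 0.0016 over all genes. All 14 core subunits and 15 of 17 regulatory particle subunits were higher, with medians of 0.15 and 0.11. The 3 naringin values lay wholly above Control 1 and 2 in 23 of the 46, where 11.2% of all genes did, and wholly below them in 1, Psme4, where 16.6% did. Among the 29 members with up to 2000 bases of exon, 26 were higher, where 64.6% of all genes of that length were, and 17 lay wholly above, where 18.6% did. No member passed: limma called 0 of the 46 in this setting, where it called 0.00672% of all genes higher and 0% lower, and the lowest adjusted p was 0.393. Of the 46, 6 were higher and 0 lower with an unadjusted p under 0.05, where 2.68% of all genes were higher and 6.68% lower. All 6 were among the 29 members with up to 2000 bases of exon. Of all 3728 genes tested of that length, 176 were higher at that threshold.

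**Figure D4:**
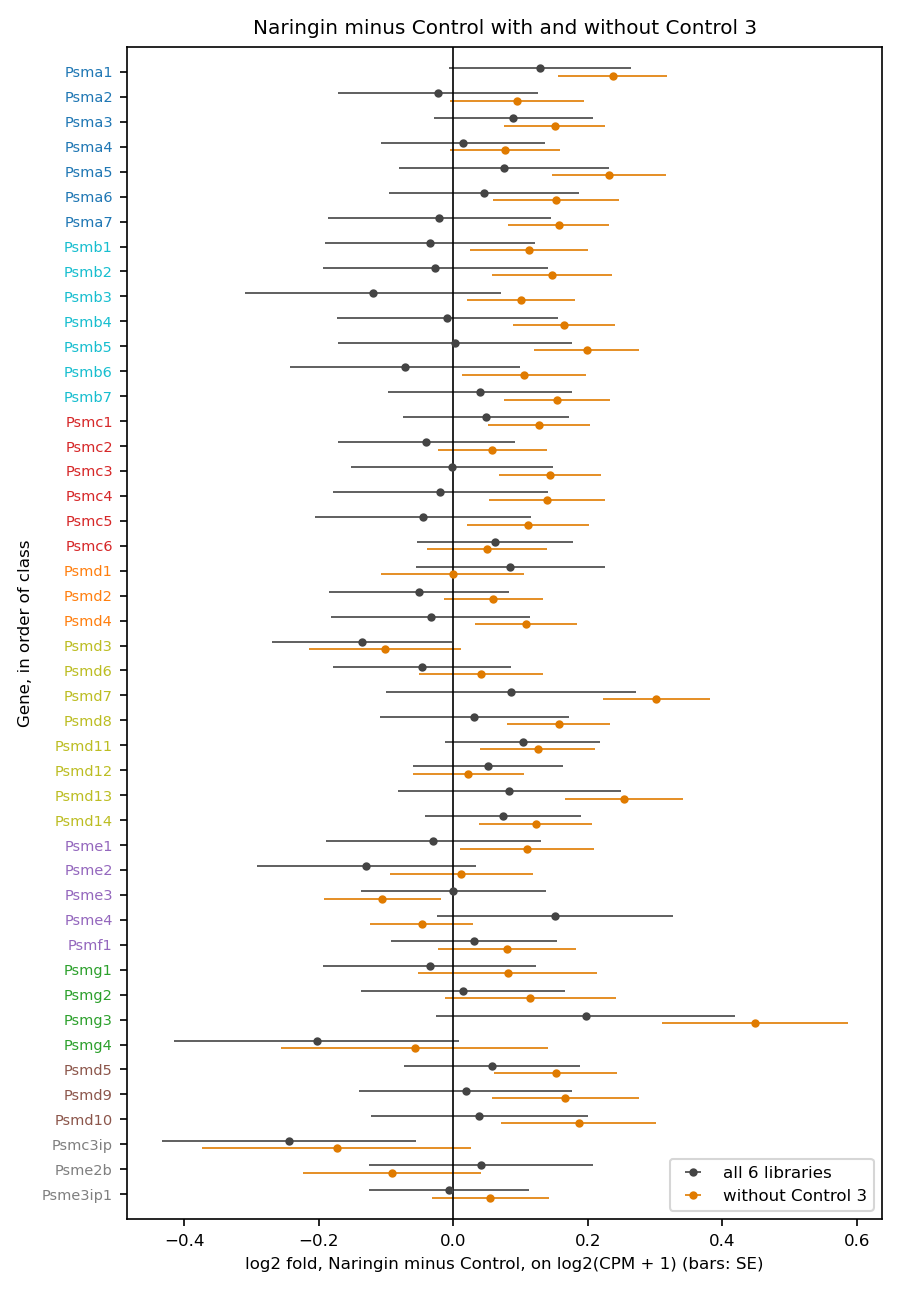
Points are the log2 fold of each gene, naringin minus control on log2(CPM + 1), with bars of 1 SE, for all 6 libraries (dark) and without Control 3 (orange). Genes run in order of class from the alpha ring at the top. With all libraries the points scatter around 0, and without Control 3, 39 of the 46 lie above it.

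The 6 genes at an unadjusted p under 0.05 in that setting were named after their values were seen. Psmd7, a lid subunit that pairs with the deubiquitinase Psmd14, had 88.4, 83.3 and 89.7 CPM with naringin, against 70.8 and 70.1 CPM in Control 1 and 2 and 111 CPM in Control 3. Its log2 fold was 0.30 ± 0.080 (SE) without Control 3 (limma adjusted p = 0.393) and 0.085 ± 0.19 with it. Psmd13, another lid subunit, had 90.1, 98.9 and 103 CPM with naringin, against 82.1 and 80.7 CPM in Control 1 and 2 and 117 CPM in Control 3. Psmg3, Psma1, Psma5 and Psmb5 had log2 folds of 0.45, 0.24, 0.23 and 0.20 without Control 3. Psme3 and Psme4, whose levels in Control 3 were low, had -0.11 and -0.047. With each library's trend on exon length removed, a step added after the data were seen, the median over 45 members was 0.012 with all libraries and 0.075 without Control 3, with 26 and 36 of the 45 higher, where 51.5% and 53.3% of all genes with a length were. After this step 0 of the 45 were higher at an unadjusted p under 0.05 with all libraries, where 1.16% of all genes were. Without Control 3 it was 3 of the 45, where 2.73% of all genes were, and the lowest adjusted p of limma was 0.800. Leaving out any one of the other 5 libraries gave medians over the 46 members between -0.047 and 0.032. Of the 21 genes given with all their values by rule, 13 changed sign in the log2 fold when 1 library was left out, 7 of them without Control 3.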

How the data were processed

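Per the labels' protocols, RNA was extracted on RNeasy columns and libraries came from the NEBNext Ultra kit. Tools named in the submitters' processing notes are STAR 2.7.9a, Trimmomatic 0.39, edgeR 3.40.0 and featureCounts of Subread 1.6.0, with build mm39; no source used here gives the annotation or strand setting. The authors deposited CPM values, each library summing to 1000000, in columns headed by a serial number that was matched to the one opening each sample title. Of the values above 0, 100% were whole reads within 0.01 of a read, for 13074180 to 14976422 reads a library. The members and gene lists were chosen with earlier results of these data known.

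Values were analysed as log2(CPM + 1), a scale that understates changes of low genes, in the 14873 genes whose mean reached 1 CPM. The test was limma 3.58.1 (R 4.3.3) with trend and robust moderation, 2-sided, adjusted by Benjamini-Hochberg over all genes at 0.05. Errors are limma's SE or the SD over 3 libraries. Recovered reads were also tested with DESeq2 1.42.0 and with edgeR 4.0.16 by quasi-likelihood after TMM scaling. The limma, edgeR and DESeq2 fits were also run on simulated reads with known changes. Genes given with every value are the catalytic subunits, the activators, the inhibitor and the 2 smallest p of each class; each pathway list is given by counts and its 2 smallest p. Lengths are from GENCODE M21 and promoter letters from RefSeq, both of an older build, so they were not combined with the deposited coordinates. Paaf1, one listed cofactor, was not analysed here. The values of one gene of those lists are not reported here.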

Additional observations from a re-analysis of the deposited data

How the results depend on the processing

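No member was called under any alternative run: other pseudocounts, filters and scalings, limma without trend, edgeR, DESeq2, each library left out and the length correction. Over all genes, DESeq2 called 1 higher and 2 lower, limma without Control 3 called 1 higher, and the length correction without Control 3 also 1; leaving out each library in turn gave 0 to 1 higher. With the replicate number as a block, limma called 0 members. The median log2 fold stays at 0.0080 by construction in that balanced design, so it is no check on the folds. Deviations of same-numbered libraries correlated at -0.26, -0.019 and -0.27, and those of differently numbered ones at -0.13 to 0.31. Same-numbered libraries were thus not more alike, but these values cannot tell whether the samples were paired. Sign turned in 13 of 21 named genes when a library was left out, and the cause was not tested. The log2 fold then ran from -0.10 to 0.20 for Psmb5, -0.19 to 0.11 for Psmb6, -0.039 to 0.15 for Psmb7, -0.24 to 0.10 for Psmb3, -0.15 to 0.11 for Psme1, -0.28 to 0.011 for Psme2, -0.11 to 0.085 for Psme3, -0.047 to 0.26 for Psme4, -0.023 to 0.080 for Psmf1, -0.0041 to 0.16 for Psmd1, -0.11 to 0.059 for Psmd2, -0.016 to 0.15 for Psmd5 and -0.080 to 0.19 for Psmd10. Psmb5 was at -0.0052 with TMM scaling, -0.041 with upper-quartile, -0.018 with median-of-ratios, -0.043 with edgeR and -0.055 with DESeq2. Upper-quartile scaling gave -0.0038 for Psmb7, -0.012 for Psmf1 and -0.0038 for Psmd10, DESeq2 gave -0.0026 for Psmd10, and the length correction -0.010 for Psmf1. In the other 8 named genes the sign held when a library was left out, from 0.071 to 0.24 for Psma1, 0.048 to 0.15 for Psma3, 0.019 to 0.12 for Psmc6, 0.0013 to 0.13 for Psmc1, -0.21 to -0.060 for Psmd3, 0.064 to 0.14 for Psmd11, 0.052 to 0.45 for Psmg3 and -0.38 to -0.039 for Psmg4. With 3 libraries a group, the standard errors of the members ran from 0.11 to 0.22.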
